A study of Mus musculus with 4 samples.

Results

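The genes described here are 30 genes of the unfolded protein response and of protein folding in the endoplasmic reticulum (ER). They were chosen by name, and each symbol was matched exactly in the count table, which lists 53801 genes. All 30 symbols matched 1 gene ID each, and all 30 were among the 17462 genes with enough counts to be tested. The RNA was sequenced from osteoclast precursor cells, which are of myeloid origin and fuse to form osteoclasts, the cells that resorb bone. They came from wild type C57BL/6 mice. Precursor cells 1 and precursor cells 2, taken here as cells of the 2 mice, were each given PBS, a saline control, or DKK1 at 200 ng/ml for 3 h. DKK1, Dickkopf-1, is a secreted protein that blocks canonical Wnt signalling. This gave 4 libraries in 2 pairs, with no repeat of a pair. The labels give neither age nor sex, nor how the precursors were obtained.

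Unfolded proteins in the ER are sensed by the membrane proteins IRE1 (gene Ern1), PERK (Eif2ak3) and ATF6 (Atf6), which are held inactive in part by the chaperone BiP (Hspa5). IRE1 splices Xbp1 mRNA so that it encodes an active transcription factor, PERK phosphorylates eIF2 alpha and so favours the translation of ATF4 and expression of CHOP (Ddit3), and ATF6 is cut in the Golgi to release a transcription factor. Their targets are the chaperones, disulfide isomerases, translocon and degradation genes grouped here. In mice the IRE1 and XBP1 branch has been linked to osteoclast formation.

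ATF6 and XBP1 act on promoters through the ER stress response element, ERSE, made of CCAAT and CCACG separated by 9 bases, and through a shorter form, ERSE-II, made of ATTGG and CCACG separated by 1 base. The members were chosen as genes of the response that these factors drive, so their share of matches is not independent of that choice. The sites found in the members' promoters are printed here. They were read 5′ to 3′ along the strand that carries the motif, from RefSeq promoter windows (GRCm38.p6) of 250 bases before to 50 after each gene's start. Capitals mark the motif.
Hspa5: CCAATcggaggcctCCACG
Hsp90b1 (distal): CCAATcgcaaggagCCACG
Hsp90b1 (proximal): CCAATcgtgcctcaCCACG
Calr: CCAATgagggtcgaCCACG
Canx: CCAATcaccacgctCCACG
Pdia6: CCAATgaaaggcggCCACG
Dnajc3: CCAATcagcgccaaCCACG
Creld2: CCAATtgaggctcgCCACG
Syvn1: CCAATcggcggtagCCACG
Dnajb11 (ERSE-II): ATTGGcCCACG
Herpud1 (ERSE-II): ATTGGgCCACG

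A window was available for 25 of the 30 members; Atf6, Derl1, Hyou1, Manf and Sec61a1 had none. ERSE, searched on both strands, was found in the windows of 8 members, 32% of the 25, against 37 of 27025 genes with a window (0.137%). ERSE-II was found in 2 members (8%) against 12 genes (0.0444%). No promoter of a member held both forms. The UPRE core TGACGTGG was found in 0 members and in 193 genes (0.714%), and the core of the amino acid response element, TGATGCAA, in 1 member, Herpud1, and in 279 genes (1.03%). The Hspa5 site lay 65 bases before the gene's RefSeq start, at chr2:34772025-34772043 on the plus strand. In another annotation, GENCODE M21, the gene starts upstream of the site, at chr2:34771970. The Hsp90b1 sites began 212 and 107 bases before its start, at chr10:86705638-86705656 and chr10:86705533-86705551, and they lie on opposite strands. The Dnajb11 site was the only 1 of the 11 after the RefSeq start, by 7 bases. These matches describe letters in a window, and binding was not measured. The whole stretch before the RefSeq start of Hspa5, 250 bases at chr2:34771840-34772089 on the plus strand, shows the site in its context.
Hspa5 (upstream): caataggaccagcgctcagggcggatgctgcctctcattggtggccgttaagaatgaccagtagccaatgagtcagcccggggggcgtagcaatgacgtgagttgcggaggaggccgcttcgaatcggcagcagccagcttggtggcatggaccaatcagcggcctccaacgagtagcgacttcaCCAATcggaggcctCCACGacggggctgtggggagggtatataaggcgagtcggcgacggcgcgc

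**Figure D1:**
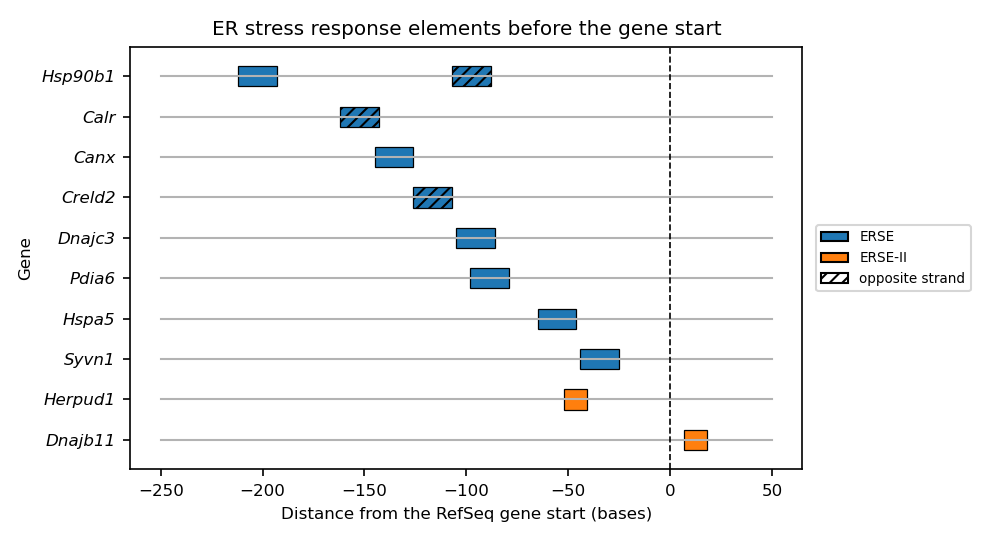
Position of each ERSE and ERSE-II match in the promoter windows of the 10 members that held one, as distance in bases from the RefSeq start (horizontal axis, 0 at the start). Each mark is 1 match; all but the Dnajb11 match lie before the start, from 212 bases before it (Hsp90b1) to 44 (Syvn1).

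The 4 libraries held 41163663 to 53537927 counts. No member was near the detection limit: the lowest of their counts was 775 (Ddit3, PBS, precursor cells 1) and the highest was 73367 (Calr, DKK1, precursor cells 1). The 12 listed markers of osteoclast precursors, monocytes and macrophages were all detected. They summed to 25300 to 33200 CPM (counts scaled to library size, here with TMM, trimmed mean of M-values, factors). Lyz2 made up most of that sum, at 14300 to 24900 CPM, and the other 11 summed to 8210 to 11100. Detection does not set this list apart, since all listed plasma cell, B cell and neutrophil genes had counts too. Markers of other cell types were present as well and differed between the preparations; their values are given with that comparison. In RNA from a whole culture, fewer cells of a type and less RNA per cell cannot be told apart.

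Levels can be ordered between genes only per length, so the order is given in the authors' FPKM (fragments scaled to gene length and library size). The authors' tables give them pair by pair and do not say how they were scaled, so they are used here only to order genes within a library. Calr, the calcium-binding lectin chaperone calreticulin, was the highest member in every library, at 424 FPKM (PBS) and 430 (DKK1) in precursor cells 1 and at 330 and 333 in the second preparation. The disulfide isomerases P4hb (282, 266, 195 and 180 FPKM in the same order) and Pdia3 (276, 243, 183 and 207) and the chaperones Hsp90b1 (201, 210, 153 and 160) and Hspa5 (169, 183, 151 and 151) were the next 4 genes in each library. The sensors were low: Atf6 stood at 10, 10.4, 11.2 and 12.6 FPKM, Ern1 at 6.5, 6.94, 8.53 and 9.66, and Eif2ak3, the lowest member in every library, at 4.88, 4.83, 3.96 and 2.76.

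**Figure D2:**
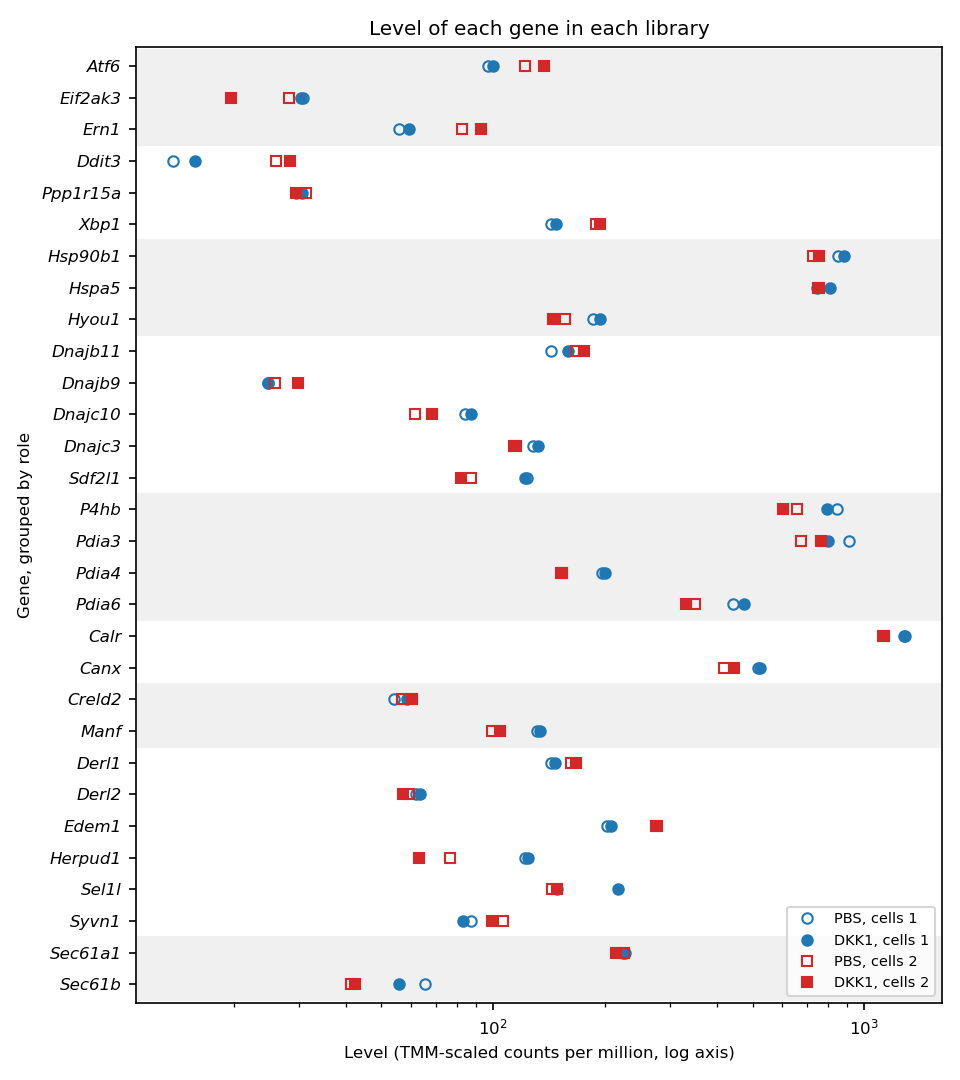
Level of each of the 30 members in the 4 libraries, in TMM-scaled CPM on a log axis, arranged by role; each point is 1 library. CPM compares libraries within a gene and not genes with each other. Points of the same precursor cells lie close together for most genes, and the highest values are those of Calr (1280, 1290, 1120 and 1130 CPM).

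Exposure to DKK1 was the comparison the libraries were made for. None of the 30 members passed the test for a difference between DKK1 and PBS (0 of 30 by edgeR's paired quasi-likelihood test, adjusted p from 0.959 to 0.998), where 0.0515% of all genes tested did (9 genes; 0.0401% higher and 0.0115% lower). At an unadjusted p under 0.05 stood 2 members, P4hb and Sel1l, beside 781 genes (4.47%) of all those tested; DESeq2 and limma-voom called 0 members too. The median log2 difference of the 30 members was 0.02 (all genes -0.001), and single members ranged from -0.25 (Eif2ak3) to 0.30 (Sel1l). Their 95% confidence intervals reached from -0.60 (Eif2ak3) to 0.60 (Sel1l), and for 28 of the 30 genes the interval lay inside a 1.5-fold difference in either direction. The test rests on 2 pairs and 1 residual degree of freedom, with the spread shared across genes, so small differences were not detectable. The intervals are not adjusted for the number of genes tested. A difference whose interval leaves out 0, as for P4hb and Sel1l, therefore need not pass the test.

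Among the sensors, Ern1, the kinase and nuclease IRE1, measured 55.6 CPM with PBS and 59.2 with DKK1 in precursor cells 1, and 82.3 and 92.8 in the second preparation. It was higher with DKK1 in both pairs, and its log2 difference of 0.13 had an interval of -0.05 to 0.31. Atf6 went from 96.8 to 100 CPM and from 122 to 137, a log2 difference of 0.10 (95% CI -0.06 to 0.27). Eif2ak3, the kinase PERK, measured 30.8, 30.4, 28.2 and 19.6 CPM in the order PBS 1, DKK1 1, PBS 2, DKK1 2, which is used from here on. The pairs parted: its log2 difference was -0.02 in the first preparation and -0.52 in the second.

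The transcription factors and outputs of the sensors gave differences of the same small size. Xbp1, the target of IRE1, measured 143, 148, 189 and 194 CPM, a log2 difference of 0.04 (95% CI -0.10 to 0.18); gene counts do not separate its spliced from its unspliced mRNA. Ddit3, the stress-induced factor CHOP, measured 13.7, 15.7, 26.0 and 28.4 CPM, higher with DKK1 in both pairs by a log2 difference of 0.16 (95% CI -0.11 to 0.43). Ppp1r15a (GADD34), which directs dephosphorylation of eIF2 alpha, measured 29.4, 30.6, 31.3 and 29.5 CPM and had opposite signs in the pairs.

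None of the chaperones was called. Hspa5 (BiP), the ER Hsp70, measured 747, 809, 755 and 751 CPM, with a log2 difference of 0.05 (95% CI -0.06 to 0.17). Hsp90b1 (GRP94), the ER Hsp90, measured 847, 883, 727 and 757 CPM, higher with DKK1 in both pairs by 0.06 on the log2 scale (95% CI -0.04 to 0.16). Hyou1, a nucleotide exchange factor of BiP related to Hsp70, measured 186, 194, 156 and 145 CPM, with a log2 difference of -0.02 (95% CI -0.19 to 0.15). The lectin chaperones that hold glycoproteins, Calr and Canx, gave log2 differences of 0.01 (95% CI -0.08 to 0.10) and 0.05 (95% CI -0.06 to 0.17).

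The J-domain partners of BiP, Dnajb9, Dnajb11, Dnajc3 and Dnajc10, and Sdf2l1, a partner of Dnajb11, lay between -0.05 (Sdf2l1) and 0.12 (Dnajb11, 143, 159, 167 and 176 CPM). Creld2 and Manf, ER proteins that are induced by stress and can be secreted, were at 0.10 and 0.05. Creld2 was 1 of the 2 members, with Sel1l, whose DKK1 libraries both lay above both PBS libraries (54.2 and 56.8 CPM in PBS, 58.6 and 60.5 in DKK1). That is 6.67% of the members against 7.93% of all genes tested, and no member had both DKK1 libraries below both PBS libraries (8.31% of all genes).

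Of the disulfide isomerases, which form and rearrange disulfide bonds, P4hb measured 842, 794, 659 and 605 CPM. It was lower with DKK1 in both pairs, and its interval did not include 0 (log2 -0.10, 95% CI -0.20 to -0.004; edgeR adjusted p = 0.959). Pdia3, which acts with the lectin chaperones, measured 907, 796, 676 and 762 CPM, lower with DKK1 in precursor cells 1 (log2 -0.19) and higher in precursor cells 2 (0.17). Pdia4 and Pdia6 were at 0.02 and 0.01.

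Among the genes of ER-associated degradation, Sel1l, the adaptor of the Hrd1 ubiquitin ligase, had the largest difference of the 30 genes. It measured 149, 217, 144 and 149 CPM, so the difference came almost wholly from precursor cells 1 (log2 0.55, against 0.04 in precursor cells 2), and the fit over both pairs gave 0.30 (95% CI 0.002 to 0.60; edgeR adjusted p = 0.959). Without the DKK1 library of precursor cells 1 the Sel1l difference was 0.02, and without that of precursor cells 2 it was 0.57. Syvn1, the ligase Hrd1 itself, measured 87.0, 82.7, 106 and 99.5 CPM, lower with DKK1 in both pairs by -0.08 on the log2 scale (95% CI -0.24 to 0.08). Herpud1, a membrane partner of that ligase, measured 122, 124, 76.7 and 63.0 CPM, with log2 differences of 0.02 and -0.29 in the pairs. Edem1, Derl1 and Derl2, a lectin for misfolded glycoproteins and a pair of retrotranslocation factors, lay between -0.01 and 0.04. The translocon subunits Sec61a1 and Sec61b gave -0.03 and -0.11, each with opposite signs in the pairs.

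Over all 30 members, 16 were higher with DKK1 in both pairs (53.3%, against 25.6% of all genes tested), 4 were lower in both (13.3%, against 26.1%) and 10 had opposite signs (33.3%, against 48.3%). Most of these differences were small: the median size of the log2 difference within a pair was 0.0538 for the first preparation and 0.0836 for the second, where all genes tested gave 0.154 and 0.162. The genes tested include some with far fewer counts than any member, and the medians are not matched for abundance. Across the 30 genes the differences in the 2 pairs correlated at 0.132, as a description, since genes are not independent replicates.

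**Figure D3:**
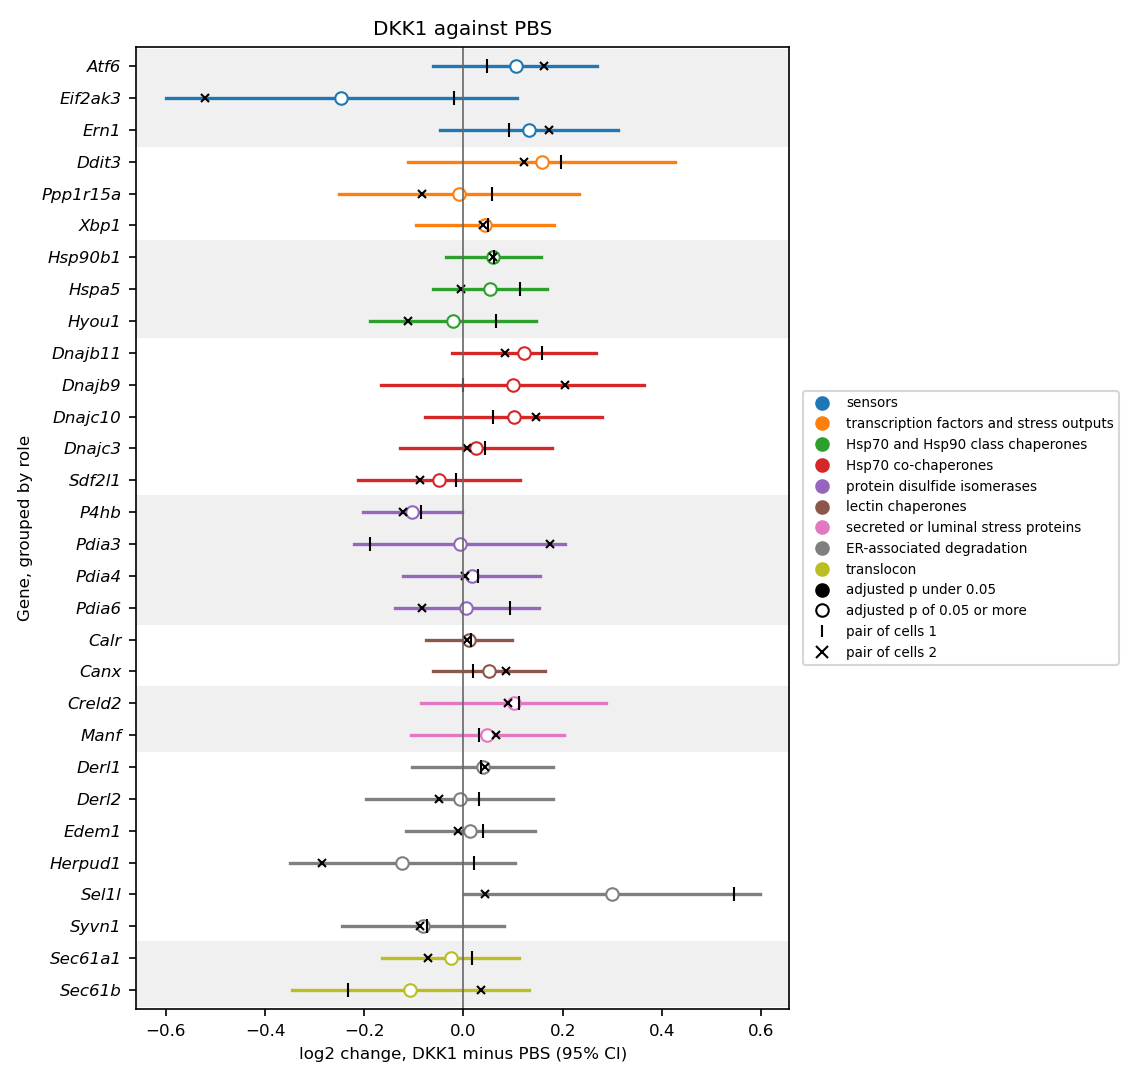
Log2 difference DKK1 minus PBS for each member from the paired edgeR fit (circles, with 95% confidence intervals as bars), and in each pair of libraries (small marks), arranged by role. All circles are open because no member had an adjusted p under 0.05; the widest departures from 0 are Sel1l (0.30) and Eif2ak3 (-0.25).

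The authors' deposited tables compare 1 library with 1 within each pair and call a gene at an FDR under 0.05 with a log2 ratio of at least 1 in size. They call 0 of the members in either pair. An FDR under 0.05 alone was given in the authors' deposited table for precursor cells 1 to Sel1l (5.54e-14), Sec61b (0.0125) and Pdia3 (0.0252), where 19% of the genes listed had one. In the authors' deposited table for precursor cells 2 it was given to Eif2ak3 (6.38e-07), Herpud1 (0.00199) and Pdia3 (0.0488), where 16.7% of the genes had one. Pdia3, the only gene in both, had opposite directions in them.

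Outside the 30 members, 127 further genes of the pathway were tested, from 9 lists. Of these, 0 were called with DKK1 by edgeR and 5 had an unadjusted p under 0.05, with a median log2 difference of 0.004. Of the 127, Ssr2, a subunit of the translocon-associated protein complex, had the smallest p: its counts were 5302, 3958, 3318 and 2749, lower with DKK1 in both pairs (log2 -0.43, 95% CI -0.61 to -0.26; edgeR adjusted p = 0.356). The others at that level were Kdelr1, the receptor that returns ER proteins from the Golgi (log2 0.27), Cebpb, a partner of CHOP and ATF4 (0.29), Psat1, an enzyme of serine synthesis and ATF4 target (0.37), and Hsph1, a cytosolic Hsp70 relative (0.19). Sar1a, the small GTPase of ER export, had counts of 5894, 6206, 1546 and 3668, and its log2 difference of 0.53 had an interval of -0.02 to 1.09.

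The second comparison the pairs allow is between the preparations, precursor cells 2 against 1, from the same fit. It compares these 2 preparations and says nothing of other mice, since neither was repeated; its p-values rest on how far the DKK1 difference varied between the pairs. Of the 30 members, 18 were called (60%), where 33.8% of all genes tested were (5905 genes). These shares are not matched for abundance either. Higher in precursor cells 2 were 6 of the 30 members, a share near the 17.9% of all genes tested. Lower were 12 of the 30, a larger share than the 15.9% of all genes tested. Sensors and signalling genes made up most of the 6: Ern1, Atf6, Xbp1 and Ddit3, with the degradation genes Edem1 and Syvn1. The 12 lower ones were folding genes (Hsp90b1, Hyou1, Sdf2l1, Dnajc10, P4hb, Pdia4, Pdia6, Calr, Canx and Manf) with Herpud1 and Sec61b. The median log2 difference was -0.19 over the members and -0.003 over all genes.

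**Figure D4:**
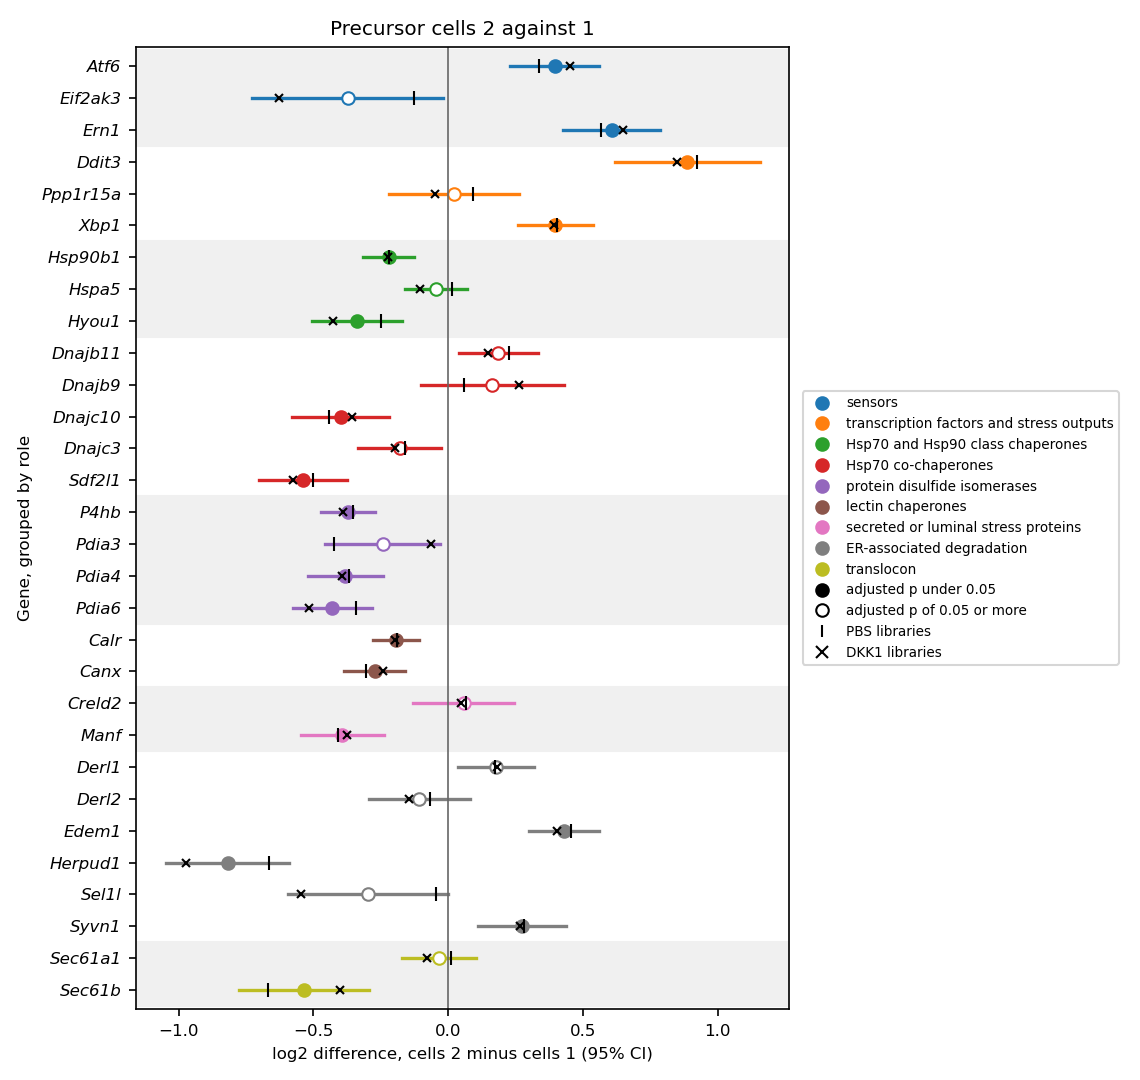
Log2 difference precursor cells 2 minus precursor cells 1 for each member, from the paired edgeR fit (circles with 95% confidence intervals), arranged by role; filled circles have an adjusted p under 0.05, and small black marks give the difference in PBS (bars) and DKK1 (crosses) libraries. Ddit3 lies farthest to the higher side (0.89) and Herpud1 farthest to the lower (-0.82).

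Ern1, with the values given above, was 1.52-fold higher in precursor cells 2 (log2 0.61, 95% CI 0.43 to 0.79; edgeR adjusted p = 0.00207). Atf6 was 1.31-fold higher (log2 0.39, 95% CI 0.23 to 0.56; edgeR adjusted p = 0.00741) and Xbp1 1.32-fold higher (log2 0.40, 95% CI 0.26 to 0.54; edgeR adjusted p = 0.00388). For all 3 genes both libraries of precursor cells 2 lay above both of precursor cells 1. Ddit3 had the largest difference of the 30 members, 1.85-fold higher (log2 0.89, 95% CI 0.62 to 1.16; edgeR adjusted p = 0.00227). Eif2ak3 was not called (log2 -0.37, edgeR adjusted p = 0.10), and Ppp1r15a differed by 0.02 (95% CI -0.22 to 0.26). Without the DKK1 library of precursor cells 2 the call of Atf6 was lost (edgeR adjusted p = 0.0695), and without the PBS library of precursor cells 2 Eif2ak3 was called lower (log2 -0.64, edgeR adjusted p = 0.0319).

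Hspa5 was not called in this comparison (log2 -0.05, 95% CI -0.16 to 0.07). Hsp90b1 was lower by 1.17-fold (log2 -0.22, 95% CI -0.32 to -0.12; edgeR adjusted p = 0.00823) and Hyou1 by 1.26-fold (log2 -0.34, edgeR adjusted p = 0.0134). The lectin chaperones were both lower, Canx from 518 and 525 to 419 and 445 CPM (log2 -0.27, edgeR adjusted p = 0.0071) and Calr by -0.19 on the log2 scale (edgeR adjusted p = 0.00946). These calls were among those that 1 library could end. Hsp90b1 and Calr lost theirs without either library of precursor cells 2 (adjusted p 0.0622 to 0.102 and 0.0666 to 0.0715), Canx lost its call without the PBS library (0.0641), and Hyou1 without the DKK1 library (0.0740). The values in those fits were -0.19 and -0.26 for Hsp90b1, -0.19 and -0.20 for Calr, -0.23 for Canx and -0.29 for Hyou1. Hyou1 also lost its call without a filter on low counts (edgeR adjusted p = 0.0538).

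Of the 4 disulfide isomerases, 3 were lower. P4hb, at 842 and 794 against 659 and 605 CPM, had the smallest adjusted p of the members (log2 -0.37, 95% CI -0.47 to -0.27; edgeR adjusted p = 0.00139). Pdia6 stood at 444 and 474 against 350 and 331 CPM (log2 -0.43, edgeR adjusted p = 0.00341), and Pdia4 at 196 and 200 against 152 and 153 (-0.38, edgeR adjusted p = 0.00442). Pdia3 was lower by -0.24 on the log2 scale without passing the test (edgeR adjusted p = 0.0798); without the DKK1 library of precursor cells 1, where its value was nearer to that of precursor cells 2, it was called (log2 -0.34, edgeR adjusted p = 0.0303), and likewise with upper-quartile scaling (log2 -0.29, edgeR adjusted p = 0.0461).

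Among the partners of BiP, Sdf2l1 was 1.45-fold lower, from 123 and 122 to 87.2 and 82.0 CPM (log2 -0.54, edgeR adjusted p = 0.00227), and Dnajc10, a disulfide reductase with a J domain, was lower by -0.40 (edgeR adjusted p = 0.00944, and 0.0715 with a value of -0.33 without the PBS library of precursor cells 2). Dnajb11, Dnajc3 and Dnajb9 were not called, at 0.19, -0.18 and 0.16; Dnajb11 was called with a stricter filter on low counts (edgeR adjusted p = 0.0448) and Dnajc3 with upper-quartile scaling (log2 -0.23, edgeR adjusted p = 0.0371). Manf was lower at 131 and 134 against 99.0 and 104 CPM (log2 -0.39, edgeR adjusted p = 0.00589), and Creld2 was not called (0.06, 95% CI -0.13 to 0.24).

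The degradation genes went both ways. Herpud1 was 1.76-fold lower (log2 -0.82, 95% CI -1.05 to -0.59; edgeR adjusted p = 0.00166), with 122 and 124 against 76.7 and 63.0 CPM. Edem1 was 1.35-fold higher, 202 and 208 against 277 and 275 CPM (log2 0.43, edgeR adjusted p = 0.00225). Syvn1 was 1.21-fold higher (log2 0.27, edgeR adjusted p = 0.0245), a call that ended without any 1 of the 4 libraries (log2 0.23 to 0.31, adjusted p 0.0547 to 0.131) and without a filter on low counts (adjusted p 0.0757). Sel1l was not called (log2 -0.30, edgeR adjusted p = 0.113); without the PBS library of precursor cells 1, which leaves its high DKK1 library alone on that side, it was called at -0.57 (edgeR adjusted p = 0.00383). Derl1 and Derl2 were at 0.18 and -0.11 and not called, Derl1 being called with a stricter filter (edgeR adjusted p = 0.0466). Of the translocon subunits, Sec61b was 1.45-fold lower (log2 -0.53, edgeR adjusted p = 0.00951; lost without either library of precursor cells 2, at -0.52 and -0.56, adjusted p 0.0805 and 0.0773) and Sec61a1 differed by -0.03 (95% CI -0.17 to 0.10).

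The difference between the preparations was seen under both treatments: across the 30 members its log2 values in PBS and in DKK1 correlated at 0.897 (all genes 0.726), a description over genes and not over samples. Of the members, 9 had both libraries of precursor cells 2 above both of precursor cells 1 (30%, against 33.7% of all genes) and 16 had both below (53.3%, against 35.3%). The median size of the difference was 0.293 in PBS and 0.366 in DKK1, larger than the 0.0538 and 0.0836 between treatments within the pairs. All genes tested gave larger medians, 0.444 in PBS and 0.429 in DKK1, again not matched for abundance. The summed level of the 4 disulfide isomerases was 2390 and 2260 CPM in precursor cells 1 against 1840 and 1850 in precursor cells 2, and that of the 3 sensors was 183 and 190 against 233 and 249.

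**Figure D5:**
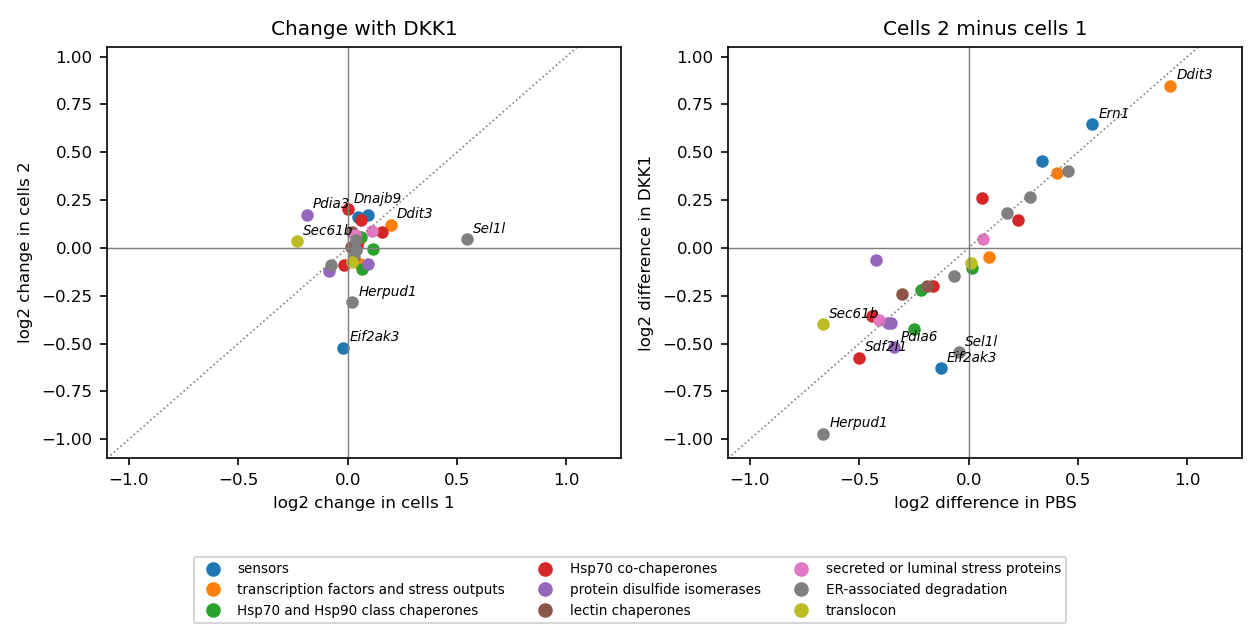
Left, log2 difference DKK1 minus PBS of each member in precursor cells 1 (horizontal) against precursor cells 2 (vertical); right, log2 difference precursor cells 2 minus 1 in PBS (horizontal) against DKK1 (vertical). Each point is 1 gene, and the points gather around 0 on the left (correlation 0.132) and along the diagonal on the right (0.897).

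Of the 8 members with an ERSE in their promoter window, 0 were called with DKK1. Between the preparations 1 of the 8 was higher (Syvn1), 4 were lower and 3 were not called, 62.5% called, beside 4 higher and 6 lower of the 17 members with a window and no ERSE (58.8%). Over all genes tested the shares were 33.8% called, 17.9% higher and 15.9% lower.

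Among the further pathway genes, 28 were higher and 29 lower in precursor cells 2 of 127 tested (44.9%, against 33.8% of all genes tested, with 17.9% higher and 15.9% lower). The ATF4 and integrated stress response genes had 9 higher and 5 lower of 19: Eif2ak2, an eIF2 alpha kinase that binds double-stranded RNA, was 3.08-fold higher and Atf3, a stress-induced factor, 1.70-fold higher, while Slc7a11, the cystine transporter, was 4.45-fold lower and Psat1 2.29-fold lower. N-glycosylation genes had 0 higher and 6 lower of 11, among them the oligosaccharyltransferase subunits Rpn1 (log2 -0.48) and Dad1 (-0.52). The 16 genes of oxidative folding had 2 lower (Tmx1, -0.28, and Pdia5, -0.88) and 0 higher. Other degradation genes had 5 higher and 0 lower of 16, with Os9, a lectin of the Hrd1 complex, at 0.43 and Derl3 at 3.00. The counts of Derl3, a Derlin abundant in secretory cells, were 54, 35, 225 and 295.

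ER export and retrieval genes had 2 higher (Mcfd2, log2 0.40, and Kdelr3, 1.85) and 4 lower of 14, with Surf4 at -0.36 and Kdelr2 at -0.48. Signal recognition and translocation genes had 2 higher (Srpr, 0.25, and Srp9, 0.34) and 3 lower of 21, with Spcs3 at -0.53 and Ssr1 at -0.31. Genes of cell death after ER stress had 5 higher and 0 lower of 9, with Bak1 at 0.58 and Traf2 at 0.52. Cytosolic and mitochondrial heat shock genes had 4 higher and 8 lower of 14, from Dnaja1 (0.51) and Hspa8 (0.36) to Hsp90aa1 (-0.50) and Hspd1 (-0.80). The 7 other ER-bound factors and their proteases had Creb3l1 higher (0.74) and Mbtps1, which cuts ATF6, lower (-0.38). Below the 33.8% of all genes called were oxidative folding (12.5%), signal recognition (23.8%), other ER-bound factors (28.6%) and other degradation genes (31.2%). Above it were ER export (42.9%), N-glycosylation (54.5%), cell death (55.6%), ATF4 (73.7%) and heat shock genes (85.7%). Without the PBS or the DKK1 library of precursor cells 2 only 26 of the 127 were called, in place of 57.

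Markers of other cell types moved with the same comparison. Plasma cells and granulocyte precursors are themselves secretory cells. The summed level of 12 plasma cell genes was 513 and 412 CPM in precursor cells 1 against 9210 and 8790 in precursor cells 2, with 9 of the 12 higher and 2 lower; Igkc stood at 53 and 39 against 3490 and 3420 CPM, and Ighg2b at 2.12 and 2.87 against 2710 and 2560. Tnfrsf17, a plasma cell marker with few reads, had 0 counts in both libraries of precursor cells 1. It had 34 and 32 in those of precursor cells 2 (0.879 and 0.736 CPM). Sdc1, on the same list and far more abundant, was not called (182 and 168 against 182 and 158 CPM). The 2 lower genes were Ighm (log2 -0.41) and Pou2af1 (-1.25). The 10 neutrophil genes were all higher, summing to 5500 and 5380 against 10000 and 10100 CPM. The 10 B cell genes had 8 lower and 1 higher, summing to 305 and 237 against 169 and 172 CPM. Blnk, which had the highest mean CPM of the list, was not called (84.9 and 88.1 against 83.8 and 88.6 CPM). In FPKM, Cd79a stood above Blnk in precursor cells 1 (32.7 and 21 against 13.5 and 14.1). Cd79a was among the lower genes (log2 -1.78). Cd22 was the B cell gene called higher (31.7 and 27.6 against 56.8 and 54.5 CPM). Vpreb1 and Igll1, which mark early B cells, had 0 counts in precursor cells 2. Their counts were low in precursor cells 1 as well (31 and 28 for Vpreb1, 25 and 92 for Igll1). Of the 12 osteoclast precursor, monocyte and macrophage markers, 5 were higher and 3 lower. Their sum of 33200 and 33000 against 25300 and 25800 CPM followed Lyz2 (24900 and 24800 against 14300 and 14700); without Lyz2 the other 11 summed to 8340 and 8210 against 11000 and 11100. Csf1r, the M-CSF receptor, stood at 2030 and 1970 against 2580 and 2590 CPM. The monocyte genes of this list went both ways. Ly6c2 and Fcgr1 were 7.16-fold and 4.03-fold higher in precursor cells 2, while Cd14 and Ccr2 were 2.83-fold and 1.51-fold lower. The 13 mitochondrially encoded genes were all lower, summing to 12500 and 12600 against 8690 and 8880 CPM. The part of any of these in the members' differences was not tested. Erythroid, T and NK, stromal, and mast cell and basophil markers each summed to at most 160 CPM in any library.

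Some members share exon bases with other genes, and whether the libraries keep strand is not given, so reads in the shared stretches cannot be assigned. Ddit3 shares 68 bases (4% of its exon bases, GENCODE M21, GRCm38) with Mars on the opposite strand and 105 with a second gene model, listed at 1 count in each library under another name, Derl2 shares 231 with Mis12, Syvn1 91 with Mrpl49, Manf 146 with Dcaf1, and Sec61a1 549 with the antisense model Gm44170. Hsp90b1 shares 415 bases with the pseudogene 1810014B01Rik, and Sec61b has a near-identical copy, Gm10320, at 20 to 55 counts.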

How the data were processed

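RNA sequencing of 4 libraries was analysed from the deposited count table, which holds whole-number counts per gene with no normalization. Reads were processed with fastp and aligned to mm10 with HISAT2, per the submitters' processing notes; the counting program is not given in the sources used here, so the counts may be rounded estimates. The authors' deposited tables, 1 per pair, give FPKM, a log2 ratio of DKK1 over PBS, and a p-value and FDR from a test that is not given.

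The 30 members and the pathway and marker lists were chosen with earlier results of these data known. The test was edgeR 4.0.16 quasi-likelihood in R 4.3.3 with TMM scaling and filterByExpr, which kept 17462 of 53801 genes and 99.9% of counts. The model had a term for the pair and a term for treatment, with 1 residual degree of freedom. P-values are two-sided and adjusted by Benjamini-Hochberg over all genes tested, with a threshold of 0.05. The pairing comes from the labels, which give PBS and DKK1 to the same numbered precursor cells; after group means were removed, libraries with the same number correlated at 0.726, and component 1 held 76.1% of the variance. The p-values measure only the spread between these libraries, which may be technical. CPM values are TMM-scaled, and differences within a pair are log2 CPM with a prior count of 2.

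Named beside the members are, for each pathway list between the preparations, at most 2 called genes in each direction, by smallest p. For DKK1, where none was called, only the pathway genes with an unadjusted p under 0.05 are named, with Sar1a. Of the plasma cell, B cell, and osteoclast precursor, monocyte and macrophage lists, the 2 genes with the highest mean CPM are named. They need not be the 2 highest per length. Tnfrsf17, Sdc1, Ighm, Pou2af1, Cd79a, Vpreb1, Igll1, Ly6c2, Fcgr1, Cd14 and Ccr2 were chosen after their values were seen. Alternatives were the fit without the pairing, RLE or upper-quartile scaling, dropping the filter on low counts or tightening it (at least 10 counts and 5 CPM), DESeq2 1.42.0, limma-voom (limma 3.58.1), edgeR's legacy fit and leaving out each library. Overlaps came from GENCODE M21 and near-identical models from BLAST 2.17.0; motifs were sought in RefSeq promoter windows with Python 3.11.15.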

Additional observations from a re-analysis of the deposited data

How the results depend on the processing

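With DKK1, 0 members and 0 further pathway genes were called under every alternative run, and no member's value changed sign under the 8 alternatives that kept all 4 libraries. The number of all genes called moved from 9 to 0 without the pairing term (115 at an unadjusted p under 0.05), 0 without a filter (911), 5 with upper-quartile scaling, 2 with limma-voom, 3 with the legacy fit and 46 with DESeq2. Leaving out a library allowed no replicate block and set unequal mixes of the preparations against each other. It gave 0 called genes in each case (range 0 to 0), moved the median of the members between -0.061 and 0.084, and changed the sign of 26 members, whose ranges were Atf6 -0.125 to 0.321, Calr -0.091 to 0.114, Canx -0.093 to 0.211, Ddit3 -0.329 to 0.686, Derl1 -0.047 to 0.131, Derl2 -0.083 to 0.07, Dnajb9 -0.023 to 0.233, Dnajc10 -0.105 to 0.337, Dnajc3 -0.076 to 0.128, Edem1 -0.199 to 0.258, Eif2ak3 -0.587 to 0.048, Ern1 -0.212 to 0.453, Herpud1 -0.656 to 0.321, Hsp90b1 -0.055 to 0.176, Hyou1 -0.242 to 0.191, Manf -0.154 to 0.267, P4hb -0.311 to 0.088, Pdia3 -0.216 to 0.206, Pdia4 -0.193 to 0.215, Pdia6 -0.264 to 0.26, Ppp1r15a -0.058 to 0.036, Sdf2l1 -0.361 to 0.229, Sec61a1 -0.067 to 0.02, Sec61b -0.416 to 0.252, Syvn1 -0.215 to 0.068 and Xbp1 -0.159 to 0.261. The 4 that kept their sign or reached 0 were Sel1l (0.022 to 0.574), Dnajb11 (0.013 to 0.237), Creld2 (0.068 to 0.137) and Hspa5 (0 to 0.113).

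Between the preparations, 18 members were called, 18 without the pairing term, 16 without a filter, 20 with upper-quartile scaling (Dnajc3 and Pdia3 gained) or a stricter filter (Dnajb11 and Derl1 gained), 18 with DESeq2, limma-voom, RLE or the legacy fit, and 12 to 18 when a library was left out. All genes called moved from 5905 to 3507 without a filter and to between 3194 and 4570 without a library, and the further pathway genes from 57 to 29 and to between 26 and 46. The median of the members lay between -0.176 and -0.126 without a library. Ppp1r15a, not called, changed sign with upper-quartile scaling (-0.03), without a filter (-0.006) and without a library (-0.021 to 0.055), and Hspa5 without a library (-0.105 to 0.01). The median over all genes in the fit was -0.054 with upper-quartile scaling and -0.045 without a filter, against -0.003 in the main fit. The cause of these changes was not tested.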
